A study of Mus musculus with 3 samples.

Results

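Follicular-like B cells of the mouse pancreas were taken as the barcodes with at least 3 UMIs of Cd79a and Cd79b together, at least 2 UMIs of Ighd and Fcer2a together, fewer than 2 UMIs of Bhlhe41, Zbtb32 and Zcwpw1 together, and no UMI of Cd3e, Cd3d, Cd3g or Csf1r. A UMI is a unique molecular identifier and stands for 1 captured mRNA molecule. Of 14302 barcodes kept at a minimum of 1000 UMIs and at most 30% mitochondrially encoded UMIs, 2012 met this rule. PBS gave 1224 of them (5249 barcodes kept), 3-day WGP 467 (4879 kept) and 7-day WGP 321 (4174 kept). Members were thus chosen by the measured UMIs of these genes.

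The libraries held live CD45+ cells sorted from the digested pancreas and were made with 10x Genomics 3′ chemistry, with 1 library for each condition. WGP is a particulate β-glucan of yeast (Saccharomyces cerevisiae) cell wall, given intraperitoneally as 1 dose of 1 mg, 3 or 7 days before the tissue was taken, and the control mice received PBS. The mice were wild-type C57BL/6J animals of both sexes, 6 to 8 weeks old. The labels do not say how many mice went into a library, and all 3 libraries held both cells with the female transcript Xist and cells with Y-linked transcripts. Since no condition was repeated, no test between PBS and WGP was possible. Intervals given below are 95% intervals, exact Poisson for counts and exact binomial for shares, and cover counting error only.

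Follicular B cells are the main recirculating naive B cells of the spleen and lymph nodes. They carry surface IgM and IgD made from the same rearranged heavy chain, enter follicles along a CXCL13 gradient read by CXCR5, and wait there for antigen and T cell help, for which they present peptides on MHC class II. B-1 cells are a separate lineage, abundant in the peritoneal cavity, that is selected for a restricted set of antibodies and secretes natural IgM.

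The levels of the 4 genes that admitted cells are given as a description, since the rule fixed them. The median member held 7, 9 and 10 UMIs of Cd79a in the PBS, 3-day and 7-day libraries, and 6, 7 and 7 UMIs of Cd79b; these are the signaling chains of the B cell receptor. Ighd, the δ constant region of IgD (chromosome 12, 113406604 to 113416324), had a UMI in 95.4%, 94.9% and 99.1% of members. Fcer2a, which encodes the low-affinity IgE receptor CD23 (chromosome 8, 3681737 to 3694175), had one in 76.5%, 74.7% and 65.7%. Cells with 2 UMIs of Ighd and Fcer2a lay just inside the rule, and they numbered 195, 72 and 39. The 160, 92 and 44 cells with 1 such UMI lay just outside. Inside the edge the summed level of Jchain, the joining chain of secreted IgM and IgA, was 517, 194 and 4.89 CPM (UMIs of a gene per 1000000 UMIs summed), and outside it was 2212, 3256 and 9936 CPM. The order was not strict, since the 69 cells with 3 such UMIs in 3-day WGP had 4941 CPM of Jchain. Cells with no such UMI reached 36516, 30074 and 35968 CPM of Jchain.

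Genes outside the rule marked the members as B cells. Each cell was thinned to 1000 UMIs so that depth was equal, and T cells, gated on at least 2 UMIs of the Cd3 genes and none of Cd79a, Cd79b or Csf1r, served as the background. Their median depths were 3720, 4429 and 6285 UMIs against 3210, 3836 and 4235 in the follicular-like cells. Ms4a1, which encodes CD20 (chromosome 19, 11249675 to 11266241), had a UMI in 69.1%, 66.8% and 65.1% of members and in 0.483%, 0.220% and 0.152% of T cells. Without thinning the shares were 91.3%, 93.1% and 96.6% of members and 0.966%, 1.43% and 0.456% of T cells. Ebf1, a transcription factor of B lineage commitment, had a UMI in 73.4%, 69.0% and 72.3% of thinned members, against 0.161%, 0.330% and 0.608% of T cells. Cr2, the complement receptor CD21 that lowers the threshold of B cell activation, was seen in 15.2%, 13.3% and 18.1% of thinned members and in no thinned T cell. Cd74, the invariant chain of MHC class II, was seen in 99.8%, 99.4% and 99.7% of thinned members. These B cell genes were thus far above the T cell background in all 3 libraries.

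Depth and mixed barcodes differed among libraries. The libraries summed to between 48219246 and 56849043 UMIs, and the members held 5509429, 2296628 and 1679469 of them in PBS, 3-day WGP and 7-day WGP. No member barcode was shared between libraries. Some members carried at least 10 UMIs of Jchain or of a marker list of another cell type: 56 PBS members, 30 at 3 days and 14 at 7 days, called off-type members below. Among them, 12, 11 and 0 members held at least 10 UMIs of Jchain, and 1 PBS cell held 8620 of the 8842 haemoglobin UMIs of all PBS members. The automatic threshold of the doublet caller marked 0, 1 and 1 barcodes and so did not work. Log2 changes were therefore computed again without the off-type members, a choice made after seeing the data. Free RNA, estimated from barcodes with at most 100 UMIs and the acinar genes in members, was put at 2.88%, 1.78% and 1.34% of the members' UMIs. These acinar genes summed to 450, 152 and 207 CPM in members, and to 158, 138 and 127 CPM without the off-type ones. The estimate, that of PBS most, thus rests in part on off-type members, though that cut itself used acinar genes.

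The share of follicular-like cells was lower in both WGP libraries than in PBS. They made up 23.3% of the kept PBS barcodes (22.2 to 24.5), 9.57% of those at 3 days (8.76 to 10.4) and 7.69% of those at 7 days (6.90 to 8.54). The ratios to PBS were 0.410 and 0.330, and the intervals of both WGP libraries lay below that of PBS. Thinned to 1000 UMIs, the same rule found 8.82%, 4.12% and 2.78%. The mixture of sexes also differed among the libraries. Of the kept barcodes with either sex's transcripts, 54.0%, 16.0% and 39.3% were Xist cells. Among Y cells the follicular-like share was 33.4% with PBS, 7.93% at 3 days of WGP and 7.94% at 7 days. Among Xist cells it was 5.59%, 15.9% and 5.30%, so that the 3-day share stood above PBS there. In PBS the share among Y cells lay far above that among Xist cells, and the part of the mice in these differences was not tested.

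**Figure D1:**
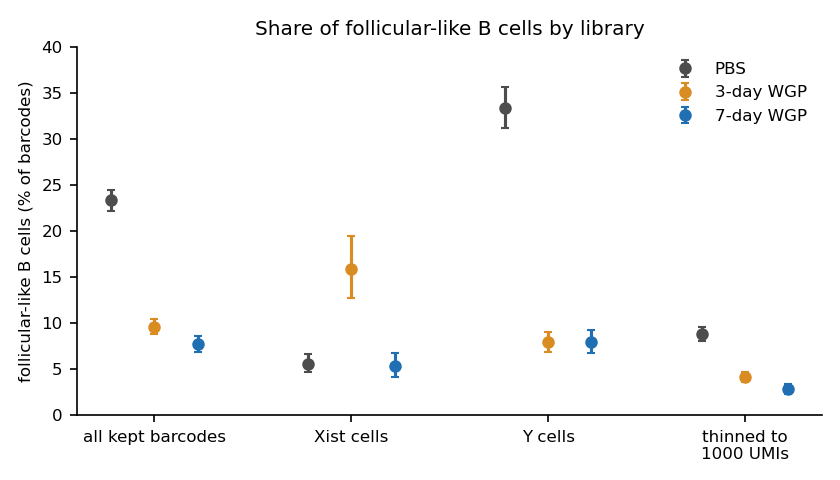
Follicular-like B cells as a share of kept barcodes in each library, for all cells, Xist cells, Y cells and cells thinned to 1000 UMIs. Points are percentages and bars are exact binomial intervals; PBS stands highest among all cells and Y cells (23.3% and 33.4%) and 3-day WGP stands highest among Xist cells (15.9%).

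Within the B cells alone the order was different. Follicular-like cells were 48.4% of the barcodes with at least 3 UMIs of Cd79a and Cd79b of the PBS library (46.5 to 50.4), 29.7% at 3 days (27.4 to 32.0) and 47.4% at 7 days (43.6 to 51.3). The 3-day library stood apart, and PBS and 7-day WGP overlapped. B-1-like B cells, gated on at least 2 UMIs of Bhlhe41, Zbtb32 and Zcwpw1, were 13.5%, 19.2% and 19.4% of the same barcodes. A share of a library cannot tell fewer follicular-like cells from more cells of other types.

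Gene levels in the members were then compared with PBS over 5059 genes with a mean of at least 20 CPM. A gene was called higher or lower when its log2 change, with 10 CPM added to both values, was at least 1 in size. At 3 days 27 genes were higher (0.534% of those measured) and 15 lower (0.297%). At 7 days 39 were higher (0.771%) and 17 lower (0.336%). Without the off-type members these counts were 3 (0.0593%) and 6 (0.119%) at 3 days, and 9 (0.178%) and 8 (0.158%) at 7 days. Many of the largest changes thus came with a few barcodes.

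The genes that define mature and follicular B cells stayed near their PBS levels. All 30 genes of the list mature and follicular B cell genes were measured and 0 were called in either direction at either time. Of all genes, 0.534% were higher and 0.297% lower at 3 days, and 0.771% and 0.336% at 7 days. A count of 0 of 30 thus does not set the list apart. The list medians were -0.0005 and 0.03 on the log2 scale beside 0.02 and 0.01 over all genes. Ms4a1 stood at 1331, 1214 and 1200 CPM in PBS, 3-day WGP and 7-day WGP. Cr2 stood at 165, 169 and 204 CPM. The log2 changes of both genes lay between -0.15 and 0.29. Ccr7, a lymph node entry receptor for T zone chemokines, was at 366, 296 and 312 CPM. Cxcr5, the follicle-homing receptor, was at 96.7, 93.2 and 116 CPM. Both trafficking genes stayed short of a call in both WGP libraries. Cd55, a complement regulator, was the member of the list with the lowest 3-day value, at 408, 296 and 361 CPM (log2 change -0.45 at 3 days). Cd38, an ectoenzyme of mature B cells, had the highest 7-day value, at 235, 216 and 340 CPM (log2 change 0.51).

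Lists that cover the machinery of these cells also held no called gene, which at the shares of all genes given above does not set them apart. Of the list B cell receptor signaling, 21 of 22 genes were measured and 0 were called, with medians of 0.03 and 0.06. Syk, the kinase that binds the phosphorylated Cd79 chains, stood at 225, 223 and 261 CPM, and Btk, the kinase that activates phospholipase Cγ2, at 88.4, 78.4 and 86.9 CPM. Of the list inhibitors of the B cell receptor, 8 of 12 were measured and 0 were called. Cd22, a sialic acid-binding inhibitory receptor, was at 181, 210 and 246 CPM, and Cd72, an inhibitory C-type lectin, at 185, 215 and 139 CPM. Their 7-day log2 changes were 0.42 and -0.39. Of MHC class II presentation, 11 of 12 genes were measured and 0 were called. H2-Aa, the α chain of the I-A molecule, was at 4699, 4650 and 4386 CPM, and Ciita, the master regulator of class II genes, at 111, 152 and 154 CPM. In homing and adhesion receptors 0 of 19 measured genes were called, in BAFF receptors and survival 0 of 14, and in nuclear oxidative phosphorylation genes 0 of 36.

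**Figure D2:**
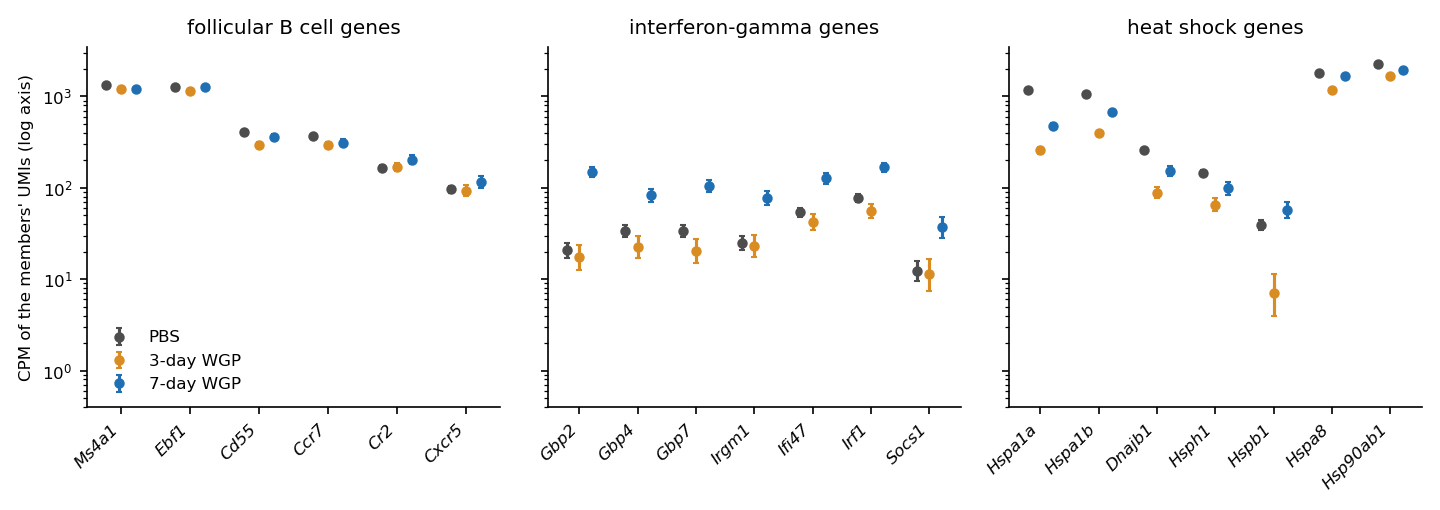
Levels of follicular B cell genes, interferon-gamma genes and heat shock genes in the follicular-like B cells of each library, as CPM on a log axis, with exact Poisson intervals. The follicular genes lie close together, Gbp2 reaches 148 CPM at 7 days against 20.9 in PBS, and Hspa1a lies at 1182 CPM in PBS against 256 at 3 days.

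Genes that interferon-gamma induces stood higher in the 7-day follicular-like cells. Interferon-gamma acts through JAK kinases and induces IRF1 and families of GTPases that attack intracellular microbes. Of the list interferon-gamma-induced GTPases and regulators, 16 of 24 genes were measured. At 7 days 9 were higher and 0 lower (beside 0.771% of all genes), with a median of 1.05. At 3 days 0 were called and the median was -0.16. The filter took the mean over the libraries, so a gene high only at 7 days could pass through that library. Cxcl9 at 0.182, 0.871 and 102 CPM and Cxcl10 at 2.00, 0.871 and 59.5 CPM did so, which favored such calls. Gbp2, a guanylate-binding protein (chromosome 3, 142620602 to 142638008), was at 20.9, 17.4 and 148 CPM, with a 7-day interval of 130 to 167 CPM. Gbp7, of the same family (chromosome 3, 142530342 to 142550149), was at 33.8, 20.5 and 105 CPM. Only the 7-day values stood apart, and PBS and 3-day WGP were both low. Irgm1, an immunity-related GTPase (chromosome 11, 48861968 to 48871683), was at 25.05, 23.1 and 78.0 CPM. Ifi47, of the same GTPase family (chromosome 11, 49076587 to 49096974), was at 53.7, 42.7 and 127 CPM. Their log2 changes at 7 days were 1.33 and 1.11, against 2.35 for Gbp2 and 1.39 for Gbp7.

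The regulators of the pathway moved with the GTPases. Irf1, a transcription factor (chromosome 11, 53770014 to 53778374), was at 77.7, 55.7 and 168 CPM. Socs1, the feedback inhibitor of JAK kinases, was at 12.3, 11.3 and 36.9 CPM, and passed the filter through its 7-day value. Both were highest at 7 days and had log2 changes of 1.02 and 1.07. The receptor chains were called in neither direction: Ifngr1 was at 81.0, 79.7 and 94.1 CPM and Ifngr2 at 44.1, 54.9 and 56.6 CPM. Serpina3g, a serine protease inhibitor outside the list, was at 59.0, 56.2 and 197 CPM, with a UMI in 15.5%, 17.99% and 38.01% of members and at most 18 UMIs in 1 cell.

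Some genes of the same list owed their value to single barcodes. Cxcl9, a chemokine for CXCR3, had 171 UMIs in the 7-day members, of which 162 lay in 1 cell. Cxcl10, of the same family, had 100 UMIs, of which 91 lay in 3 cells. Their 7-day log2 changes were 3.46 and 2.54, and 0.64 and 0.45 without the off-type members. Gbp2 then had a log2 change of 1.97, Gbp7 1.30, Irgm1 1.28, Socs1 1.06 and Gbp4 1.05, while Ifi47 at 0.86 and Irf1 at 0.72 fell short of a call. Of interferon-gamma-induced GTPases and regulators, 5 of 16 were then higher with a median of 0.74, against 8 in thinned cells, 12 in Y members and 1 in Xist members.

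The 7-day interferon values differed between Xist and Y cells. The median of interferon-gamma-induced GTPases and regulators was 1.35 among the 148 Y members, 0.92 among the 106 members with neither kind of transcript and -0.10 among the 64 Xist members, each against the PBS members of the same kind. Of the 15 Gbp and Irg GTPases summed in cells thinned to 1000 UMIs, the Y members held 291, 231 and 804 CPM. The Xist members held 298, 92.1 and 219 CPM, which rest on 34, 7 and 14 UMIs, with a 7-day interval of 120 to 367 that covered the PBS value. Not thinned, the Xist members held 340, 131 and 370 CPM, so that the 7-day value was then the highest. Among all members the sum was 279, 218 and 679 CPM, and 22.5%, 18.2% and 32.1% of them had a UMI. The difference between Xist and Y cells was not tested, since all cells of a kind come from 1 library per condition. Other lymphocytes of the same libraries gave the same order: the sum was 273, 156 and 473 CPM in B-1-like B cells and 736, 632 and 1523 in T cells. In T cells the Xist cells were also higher at 7 days, with 844, 693 and 1193 CPM.

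**Figure D3:**
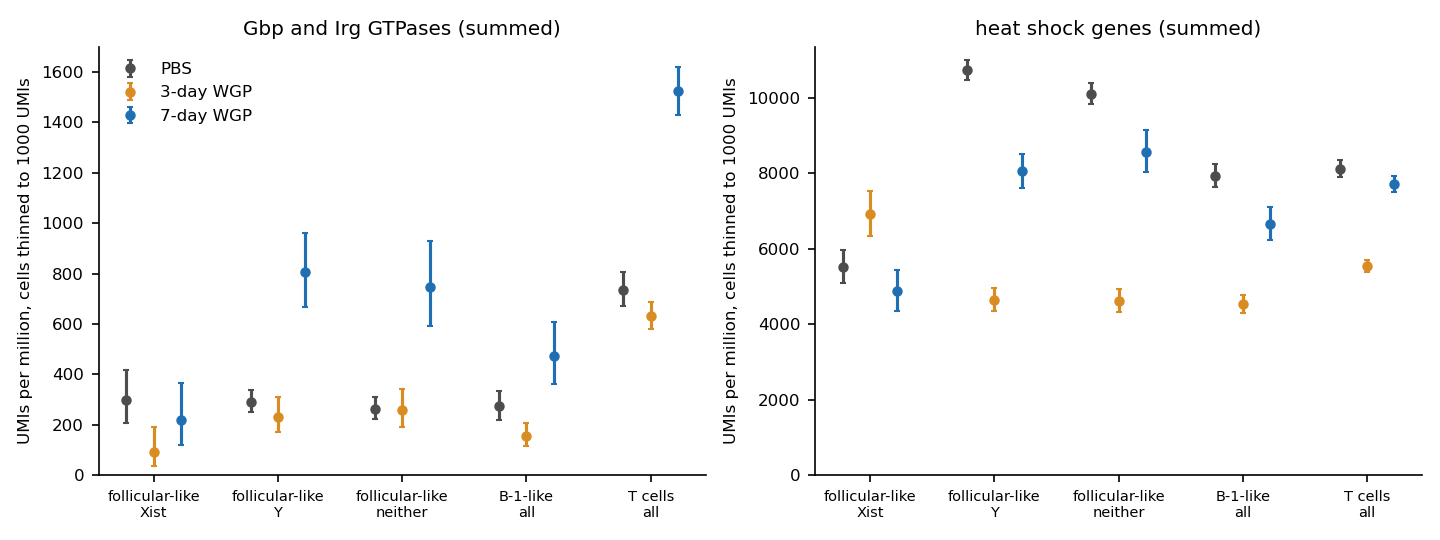
Summed levels of the Gbp and Irg GTPases (left) and of the heat shock genes (right) in follicular-like B cells split by Xist and Y transcripts, in B-1-like B cells and in T cells, in cells thinned to 1000 UMIs. Bars are exact Poisson intervals; the 7-day GTPase level is highest in 4 of the 5 groups and not in the Xist follicular-like cells, where 219 CPM stand beside 298 in PBS (370 beside 340 CPM when not thinned).

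The promoters of 4 called interferon-gamma genes are shown because they carry the DNA motifs through which the pathway is known to act. Of the 9 called genes, 8 had an entry in the RefSeq promoter table of build GRCm38.p6, which runs from 250 bases before the start site to 50 bases after it. The interferon-gamma activated site was searched as TTCNNNGAA and the response element bound by IRF factors as GAAA, any 2 bases and GAAA again, on both strands. Of all 32851 promoters, 8.30% held the first, 3.44% the second and 11.3% either. Of the 8 genes, 2 held the activated site, 5 the response element and 6 either, with Gbp7 holding both. A match is a description of the letters and no evidence of binding. Capitals mark the matches, and the windows are chr3:142620413-142620712 on the plus strand for Gbp2, chr3:142530086-142530385 on the plus strand for Gbp7, chr11:48871371-48871670 on the minus strand for Irgm1 and chr11:53769764-53770063 on the plus strand for Irf1, each written 5′ to 3′ along the gene.
Gbp2: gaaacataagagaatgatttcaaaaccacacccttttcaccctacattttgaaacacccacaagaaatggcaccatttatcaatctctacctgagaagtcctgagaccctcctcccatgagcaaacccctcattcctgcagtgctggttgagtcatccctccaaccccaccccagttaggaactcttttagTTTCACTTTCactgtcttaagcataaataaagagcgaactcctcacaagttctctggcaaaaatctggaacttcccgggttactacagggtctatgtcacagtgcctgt
Gbp7: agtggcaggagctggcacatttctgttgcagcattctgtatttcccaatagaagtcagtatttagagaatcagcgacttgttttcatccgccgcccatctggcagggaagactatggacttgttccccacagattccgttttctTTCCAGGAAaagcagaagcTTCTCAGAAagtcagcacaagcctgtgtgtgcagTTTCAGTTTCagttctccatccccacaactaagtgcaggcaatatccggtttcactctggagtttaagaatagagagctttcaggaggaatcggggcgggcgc
Irgm1: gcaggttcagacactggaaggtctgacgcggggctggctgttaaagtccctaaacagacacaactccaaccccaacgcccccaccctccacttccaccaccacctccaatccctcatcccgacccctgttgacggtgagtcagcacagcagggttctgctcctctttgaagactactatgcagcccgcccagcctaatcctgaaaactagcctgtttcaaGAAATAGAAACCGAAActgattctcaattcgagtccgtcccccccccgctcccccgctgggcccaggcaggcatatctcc
Irf1: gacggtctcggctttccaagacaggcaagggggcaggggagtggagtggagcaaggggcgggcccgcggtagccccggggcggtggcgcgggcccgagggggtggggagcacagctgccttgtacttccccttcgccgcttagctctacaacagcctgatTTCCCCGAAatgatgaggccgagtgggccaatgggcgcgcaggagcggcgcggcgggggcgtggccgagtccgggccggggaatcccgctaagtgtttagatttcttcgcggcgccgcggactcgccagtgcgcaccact

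Gbp2, whose 7-day value was furthest above PBS among the GTPases, held the response element 59 bases before its start and no activated site. Gbp7 held 2 activated sites and 1 response element, Irgm1 held 2 overlapping response elements, and Irf1 held 1 activated site. Ifi47 and Cxcl9 held neither motif in these windows. No order of the log2 changes was read from the motifs.

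MHC class I genes, which display cytosolic peptides to CD8 T cells, had positive 7-day log2 changes that stayed short of a call. Of MHC class I presentation, all 18 genes were measured, 0 were called, and 18 of 18 had a log2 change above 0. Their median was 0.45, beside 0.01 over all genes. At 3 days 15 of 18 were above 0 and the median was 0.07. H2-K1, a classical heavy chain, was at 1602, 1678 and 2206 CPM. B2m, the light chain, was at 1217, 1286 and 1593 CPM. Tap1, a subunit of the peptide transporter, was at 107, 112 and 180 CPM, and Nlrc5, the transactivator of class I genes, at 13.8, 17.4 and 29.2 CPM. Nlrc5 passed the filter through its 7-day value, which favored a positive 7-day change. For these 4 genes the 7-day value was the highest of the 3 libraries. The 7-day median was 0.58 in Y members, 0.45 in members with neither kind of transcript and 0.05 in Xist members, where 11 of 18 genes lay above 0.

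Genes of the type I interferon response lay nearer to PBS. Of type I interferon-stimulated genes, 31 of 55 were measured, with medians of -0.17 and 0.20. At 3 days 0 were higher and 0 lower, and at 7 days 1 was higher (beside 0.771% of all genes) and 0 lower. Isg15, a ubiquitin-like modifier, was at 14.5, 10.9 and 20.2 CPM. Isg15, Ifit1, Ifit3, Mx1, Oas1a and Rsad2 all had means under 20 CPM and so were not among the measured genes. Ifi213, a sensor-like protein of the p200 family, was at 35.0, 15.2 and 31.6 CPM. In NF-kB targets and feedback genes 0 of 20 measured genes were called, with medians of -0.02 and 0.23. At most 0.771% of all genes were called in 1 direction. Nfkbia, the inhibitor that NF-kB induces, was at 235, 233 and 278 CPM, and Tnfaip3, which encodes A20, at 42.7, 39.6 and 44.1 CPM.

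Heat shock genes were lower in the 3-day members. Their products are chaperones that refold proteins and are induced by heat shock factor 1. Of heat shock genes, 12 of 13 were measured, and 5 were lower and 0 higher at 3 days (beside 0.297% of all genes), with a median of -0.95. At 7 days 1 was lower and the median was -0.43. Hspa1a, an inducible HSP70 (chromosome 17, 34969190 to 34972156), was at 1182, 256 and 479 CPM. Hspa1b, its neighbor (chromosome 17, 34956436 to 34959238), was at 1057, 396 and 678 CPM. These paralogs are close in sequence, so their split is uncertain, and together they had a UMI in 74.8%, 36.2% and 63.6% of members. Dnajb1, a cochaperone, was at 258, 88.4 and 153 CPM, and Hsph1, a nucleotide exchange factor, at 145, 65.3 and 98.2 CPM. Hspb1, a small heat shock protein, was at 39.2, 6.97 and 57.2 CPM. PBS was highest for 4 of these 5 genes, and 3-day WGP was lowest for all 5. The exception, Hspb1 at 7 days, rests on few barcodes: 87 of its 96 UMIs lay in 1 of the 9 cells with a UMI, and its 7-day log2 change was -0.99 in thinned cells and -1.38 without the off-type members. Without them 4 genes of the list were lower at 3 days, and 7 were lower in thinned cells. The constitutive chaperones were lower by less, with Hspa8 at 1826, 1184 and 1661 CPM and Hsp90ab1 at 2259, 1659 and 1967 CPM.

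The heat shock values did not hold in Xist cells. The 3-day median of heat shock genes was -1.39 in Y members, -1.06 in members with neither kind of transcript and 0.15 in Xist members. Summed in cells thinned to 1000 UMIs, the list stood at 10748, 4653 and 8054 CPM in Y members and at 5526, 6921 and 4875 in Xist members. Hspa1a itself had a 3-day log2 change of -2.88 in Y members and 1.42 in Xist members. The PBS Xist members thus stood well below the PBS Y members. The same sum was 7936, 4530 and 6664 CPM in B-1-like B cells and 8118, 5551 and 7719 in T cells, so 3-day WGP was lowest in those classes too. Heat shock genes and the sex of the cells moved together within PBS in all 3 classes, with Y cells at 10194 and Xist cells at 6039 CPM in B-1-like B cells and at 9093 and 6129 in T cells. Their part in the heat shock values was not tested.

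Immediate early genes, which stimulation or dissociation induces within minutes, had negative medians with 1 gene called at each time. Of immediate early genes, 23 of 28 were measured, 1 was lower at 3 days (beside 0.297% of all genes) and 1 at 7 days (beside 0.336%), and the medians were -0.23 and -0.46. In Xist members the medians were 0.22 and 0.09. Fosb, a subunit of the AP-1 factor, was at 207, 132 and 64.9 CPM, with log2 changes of -0.61 and -1.54. Atf3, a stress-induced repressor, was at 63.7, 15.7 and 37.5 CPM, with log2 changes of -1.52 and -0.63. Fosb was lowest at 7 days and Atf3 at 3 days. In Xist members the 7-day change of Fosb was -0.25, against -1.95 in Y members. Genes of stimulated B cells were not raised beside them: Cd69, an early activation antigen, was at 461, 503 and 376 CPM, Cd86, a costimulatory ligand, at 111, 94.1 and 104 CPM, and Myc, a growth regulator, at 156, 127 and 193 CPM. In B cell activation and costimulation 1 of 17 measured genes was higher at each time, Ccl3 at 3 days and Ccl4 at 7 days. The 7-day log2 change of Ccl4 was -1.25 without the off-type members.

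Cycling and antibody-secreting members were few and set several of the largest changes. Of cell cycle genes, 14 of 23 were measured, 4 were higher at 3 days (beside 0.534% of all genes) with a median of 0.62, and 4 were lower at 7 days (beside 0.336%) with a median of -0.26. In thinned cells 2 of these 14 were higher at 3 days and 0 lower at 7 days. Top2a, a topoisomerase of dividing cells, was at 32.9, 100 and 4.17 CPM, and Mki67, a proliferation marker, at 34.3, 82.3 and 4.76 CPM. Of the 370, 419 and 15 UMIs of these 2 genes, 291, 383 and 0 lay in the 7, 9 and 0 members with at least 10 of them. Without the off-type members Top2a had log2 changes of 0.76 and -1.29, and no gene of the list reached 1 at 3 days, Ube2c and Mki67 being the highest at 0.99. Cks2, a cell cycle gene outside the list, was at 24.7, 80.6 and 17.9 CPM and had a 3-day log2 change of 1.38 in all members and 1.21 without the off-type ones, with 117 of its 185 3-day UMIs in 5 cells. Of plasma cell genes, 9 of 14 were measured, 2 were higher at 3 days (Fkbp11 and Eaf2) and 1 was lower at 7 days (Jchain). Eaf2 was at 17.8, 50.5 and 4.76 CPM, and Ube2c of the cell cycle list at 10.2, 59.7 and 0 CPM. Both passed the filter through their 3-day value, which favored their 3-day calls. Jchain was at 1552, 1996 and 19.1 CPM, and 8300 of its 8549 PBS UMIs lay in 12 cells. Without the off-type members its log2 change at 7 days was -0.98, a smaller size that the cut on Jchain itself favored. Ighm, the µ constant region, showed the same dependence, with 7315, 12035 and 3404 CPM in all members and 3483, 3936 and 3572 CPM without the off-type members.

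The other genes named by rank were mostly markers of other cells. At 3 days the 10 highest included Il1b, a cytokine of myeloid cells, at 8.35, 50.9 and 93.5 CPM, and 107 of its 117 3-day UMIs lay in 2 cells. Myl4, a myosin light chain, was at 11.6, 42.2 and 17.3 CPM, and Lgals3, which encodes galectin-3, at 23.6, 62.3 and 39.9 CPM. At 7 days C3, the central complement protein, had 323 UMIs, of which 310 lay in 1 cell. Without the off-type members the 7-day log2 changes of C3, Tnfaip2, Fabp5 and Ifitm2 were 0.28, 0.41, 0.95 and 0.59. The macrophage and monocyte list of 22 genes summed to 300, 629 and 734 CPM in members, and to 268, 530 and 478 CPM without the off-type members. That cut used genes of this list, so a lower sum follows from it. The list for endothelial cells and fibroblasts summed to 134, 118 and 1088 CPM, and 1 cell held 1562 of its 1565 fibroblast UMIs at 7 days. In the lower direction, the 4 measured globin genes of the erythroid list were called at both times, and 1 PBS cell held most of their UMIs. The genes ranked lowest at 3 days included some short of a call. Sirt1, a deacetylase, was at 31.2, 13.5 and 29.8 CPM (log2 change -0.81 at 3 days), and Parp14, an ADP-ribosyltransferase, at 65.0, 37.0 and 83.4 CPM (-0.67).

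Nearly all members were unswitched. The rule favored this, since it admitted cells by Ighd, so the shares are given as a description. At least 3 UMIs of Ighm were found in 95.3%, 97.4% and 98.8% of them. At least 3 UMIs of an IgG constant region were found in 8, 6 and 2 members, of Igha in 1, 2 and 1, and of Ighe in 0 of each library. The counts of 0 allow shares of up to 0.301%, 0.787% and 1.14% by the exact binomial interval. Lambda light chain UMIs outnumbered kappa in 127 of 1215 members of PBS (10.5%, 8.79 to 12.3), 54 of 464 of 3-day WGP (11.6%, 8.86 to 14.9) and 42 of 318 of 7-day WGP (13.2%, 9.69 to 17.4), and these intervals overlapped.

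Heavy chain variable genes could be read in a minority of members. A leading Ighv gene, meaning the one with the most UMIs, was found in 234, 79 and 89 members (19.1%, 16.9% and 27.7%), which used 68, 48 and 47 genes. A single UMI was enough, and at least 3 UMIs of the leading gene were found in 8, 2 and 4 members. Of the T cells, which make no heavy chain, 1 of 621, 3 of 908 and 2 of 658 had a leading gene (0.161%, 0.330% and 0.304%). The most frequent leading genes among members were Ighv1-81 and Ighv6-3 with 12 of 234 PBS members each (5.13%), Ighv1-50 and Ighv11-2 with 5 of 79 each at 3 days (6.33%) and Ighv1-64 with 7 of 89 at 7 days (7.87%). The effective number of genes, the inverse of the summed squared shares, was 41.3, 33.7 and 33.4. No single gene led in all 3 libraries. Ighv11-2, a variable gene of B-1 cell antibodies to phosphatidylcholine, led in 4, 5 and 1 members. In B-1-like B cells it led in 27 of 101, 59 of 168 and 22 of 60 cells (26.7%, 35.1% and 36.7%), and the effective number was 10.3, 5.20 and 6.23. The classes differ in depth. With at least 3 UMIs Ighv11-2 led in 2 of 8, 1 of 2 and 0 of 4 members. The B-1-like counts were then 16 of 41, 45 of 98 and 14 of 35. In cells thinned to 1000 UMIs it led in 1 of 65, 2 of 21 and 0 of 20 members. Thinned B-1-like cells gave 3 of 16, 15 of 32 and 4 of 14.

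**Figure D4:**
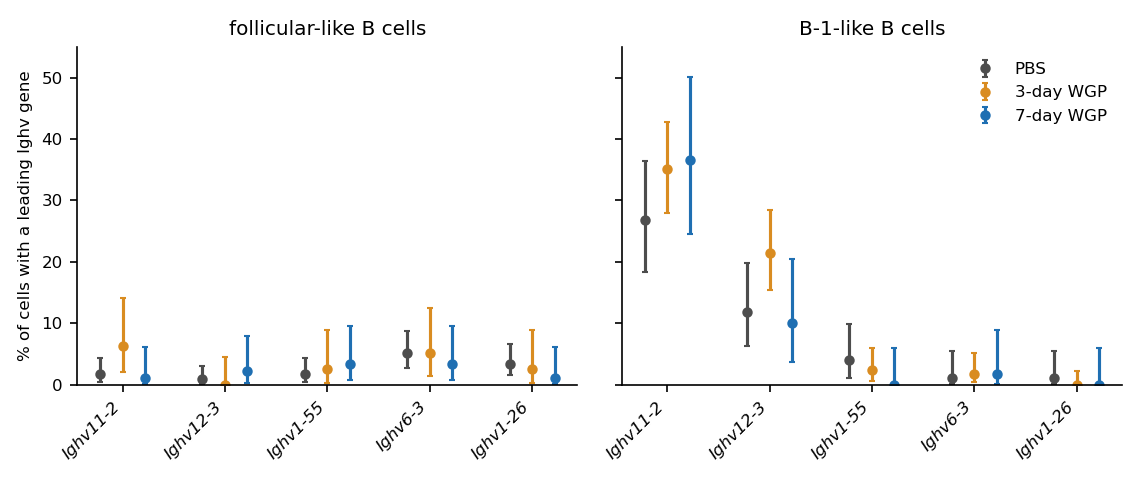
Share of cells led by 5 Ighv genes in follicular-like and in B-1-like B cells of each library, as percent of cells with a leading Ighv gene, with exact binomial intervals. Ighv11-2 leads in 26.7% to 36.7% of B-1-like B cells and in 1.12% to 6.33% of follicular-like cells. A single UMI was enough, and the cells were not thinned.

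Follicular-like and B-1-like B cells of the same libraries could be tested against each other, since each of the 3 libraries held both. UMIs were summed for each library and class, genes of the rule were left out, and edgeR's quasi-likelihood test was run with the library as a block over 9510 genes. Log2 folds were fitted after TMM scaling (a trimmed mean of log ratios). The CPM printed beside them are plain shares of each sum and can differ from the folds. Ighm alone was at 36716, 81870 and 88585 CPM in B-1-like cells, which lowers the CPM of other genes there. At a Benjamini-Hochberg adjusted p under 0.05, 1050 genes were higher in follicular-like cells (11%) and 1349 were lower (14.2%), 2399 in all (25.2%). DESeq2 called 459 and 811. The classes differ in depth, with medians of 12243, 15066 and 11393 UMIs in B-1-like cells, and when each cell was thinned to 1000 UMIs 258 genes were higher and 348 lower of 3779 tested. Without the 3-day library 478 and 702 genes were called, and without the 7-day library 501 and 807. Off-type cells weighed on this comparison too. Leaving them out cut the B-1-like cells from 341, 302 and 131 to 276, 133 and 91. Then 847 genes were higher and 938 lower. Of the 2399 calls, 2099 were tested again, of which 1185 were called in the same direction and 107 turned direction.

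Genes of follicular identity were higher. Of mature and follicular B cell genes, 20 of 30 were higher and 1 lower in follicular-like cells (beside 11% and 14.2% of all genes). The median was 0.71, and 16 were higher and 1 lower after thinning. Cr2 was at 166, 170 and 205 CPM in follicular-like cells and at 23.9, 9.96 and 19.5 CPM in B-1-like cells of PBS, 3-day WGP and 7-day WGP, a log2 fold of 2.87 ± 0.20 (SE, 3 libraries, adjusted p = 0.000157, edgeR). No B-1-like value reached a follicular-like one. Ccr7 was at 368, 297 and 314 CPM against 78.2, 38.6 and 59.6 CPM (log2 fold 1.99 ± 0.15, adjusted p = 0.000234, edgeR). Ebf1 was at 1284, 1153 and 1287 CPM against 409, 175 and 298 CPM (1.62 ± 0.16, adjusted p = 0.00044, edgeR). Both were higher in 3 of 3 libraries, as were Cd72 (1.98), Mef2c (1.05) and Pax5 (1.15). Ms4a1 did not pass, at 1338, 1220 and 1207 CPM against 1287, 528 and 636 CPM (0.19 ± 0.15, adjusted p = 0.41, edgeR). Without the off-type members it was lower (-0.36, adjusted p = 0.000262, edgeR), and 17 genes of the list were higher and 3 lower. Pou2af1, a coactivator that plasma cells also use, was the lower gene (-0.68).

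Antigen presentation also separated the classes, while homing receptors went both ways. Of MHC class II presentation, 10 of 11 genes were higher and 0 lower by edgeR at an adjusted p under 0.05. Of all genes, 11% were higher and 14.2% lower. The list gave 10 higher and 1 lower at an unadjusted p under 0.05, and 9 and 0 by DESeq2. Without the off-type members 8 were higher and 0 lower, with a median of 0.37 against 0.74 with them. H2-Aa was at 4724, 4674 and 4408 CPM against 2506, 1318 and 1647 CPM (log2 fold 0.84 ± 0.13, adjusted p = 0.0029, edgeR), and Ciita had a log2 fold of 1.19. Of homing and adhesion receptors, 11 of 23 were higher and 8 lower, beside the same shares of all genes. That list gave 7 and 4 of 19 tested after thinning, 7 and 6 without the off-type members and 6 and 6 by DESeq2. Cxcr4, the receptor for stromal CXCL12, was at 201, 214 and 231 CPM against 61.2, 49.3 and 65.6 CPM (1.35), and Gpr183, the oxysterol receptor that guides B cells to the outer follicle, had a log2 fold of 1.02. Itgb1, the integrin β1 chain, went the other way at 45.3, 52.5 and 74.2 CPM against 179, 88.7 and 104 CPM (-1.64). Ccr10, a receptor of IgA plasma cells, was at most 0.365 CPM in follicular-like cells and between 4.35 and 5.62 CPM in B-1-like cells.

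Genes of B-1 cells and plasma cells were lower in follicular-like cells. Of B-1 cell genes outside the rule, 20 of 22 were lower and 0 higher by edgeR (beside 14.2% and 11% of all genes). The median was -1.57, and the counts were 21 and 0 at an unadjusted p under 0.05 and 17 and 0 by DESeq2. Ctla4, an inhibitory receptor, was at 8.39, 10.9 and 16.8 CPM against 48.1, 88.8 and 68.8 CPM (log2 fold -3.05 ± 0.20, adjusted p = 0.000153, edgeR). Spn, which encodes CD43, had a log2 fold of -1.81, Cd9, a tetraspanin, -1.66, Cd5, an inhibitory scavenger receptor, -1.42, and S100a6, a calcium-binding protein, -1.85. All 5 were lower in 3 of 3 libraries. Of plasma cell genes, 14 of 14 were lower (beside 14.2% of all genes) with a median of -3.45. Only the follicular-like rule required UMIs of Ighd or Fcer2a. Secreting cells without them could thus enter only the B-1-like class, which favored this difference. Without the off-type members 8 were lower with a median of -0.68, and that cut itself used Jchain. Of nuclear oxidative phosphorylation genes, 26 of 36 were lower (beside 14.2% of all genes) with a median of -0.47. The count was 8 after thinning, 9 without the off-type members and 13 by DESeq2. Of cell cycle genes, 15 of 23 were lower (beside 14.2% of all genes). After thinning 3 of 6 tested were lower, and the count was 6 without the off-type members and 6 by DESeq2. The 10 genes with the lowest log2 fold included Ighg2c (-7.96), Ighg2b (-7.23), Igha (-6.18), Ighg3 (-5.51) and Ighv11-2 (-4.96). Without the off-type members Ighg2b and Jchain did not pass, Igha stood at -0.83 and Ighg3 at -2.95. Ighg2c and Ighv11-2 were not tested there. Only the follicular-like rule admitted cells by Ighd, which favored low switched constant regions.

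The globin genes Hba-a2, Hba-a1, Hbb-bt and Hbb-bs were among the 10 genes with the highest log2 fold in follicular-like cells (5.37, 4.12, 3.75 and 3.52), and the single PBS cell named above held nearly all of their PBS UMIs. Apart from the globin genes, several genes outside the lists ranked high. Tmem108, a transmembrane protein, was at 52.6, 50.3 and 42.5 CPM against 3.56, 2.25 and 3.18 CPM (log2 fold 3.57 ± 0.21, adjusted p = 0.000123, edgeR). Neurl3, a ubiquitin ligase, was at 122, 118 and 99.9 CPM against 12.5, 6.59 and 9.94 CPM (3.09), and Zfp608, a zinc finger gene, at 39.4, 40.7 and 34.1 CPM against 4.55, 2.41 and 1.99 CPM (3.15). No B-1-like value of these 3 genes reached a follicular-like one. Vpreb3, a chaperone of early immunoglobulin chains, had a log2 fold of 2.71. Of transitional B cell genes, 5 of 9 were higher and 0 lower by edgeR (beside 11% and 14.2% of all genes). The counts were 6 and 0 at an unadjusted p under 0.05 and 3 and 0 by DESeq2. Of interferon-gamma-induced GTPases and regulators, 8 of 19 were higher in follicular-like cells (beside 11% of all genes) and 1 lower (beside 14.2%). The list gave 2 higher and 2 lower of 11 tested after thinning, 7 and 4 without the off-type members and 5 and 0 by DESeq2. Irf8, a transcription factor of B cell development, was at 357, 422 and 497 CPM against 128, 99.9 and 111 CPM (1.36).

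**Figure D5:**
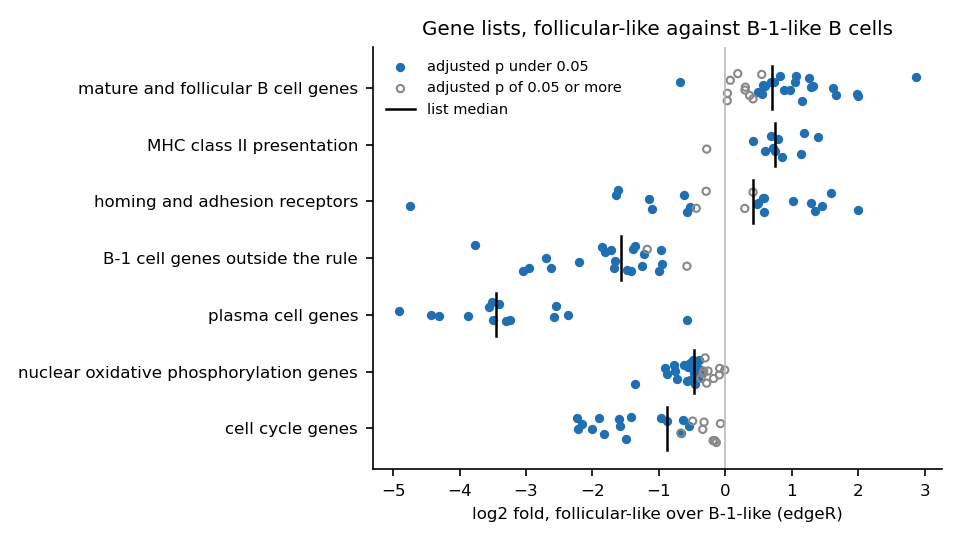
Log2 fold of single genes in follicular-like over B-1-like B cells, by gene list. Filled points have an adjusted p under 0.05 in edgeR's quasi-likelihood test, open points do not, and bars are list medians; the medians of follicular and MHC class II genes lie right of 0 (0.71 and 0.74), those of B-1 and plasma cell genes left of it (-1.57 and -3.45).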

How the data were processed

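The authors deposited raw UMI counts per gene and barcode for each of the 3 libraries, made per the labels with Cell Ranger 3.1.0 on the mm10 reference. Seurat is also named there, and its version is not given in the sources used here. Barcodes were kept at a minimum of 1000 UMIs and at most 30% mitochondrially encoded UMIs. Counts were summed over the members of each library and scaled to 1000000 (CPM), and log2 changes had 10 CPM added. Thinning to 1000 UMIs equalised depth. Only follicular-like against B-1-like cells was tested, with edgeR 4.0.16 (R 4.3.3), TMM scaling, library as a block and Benjamini-Hochberg adjustment. DESeq2 1.42.0 was an alternative. Doublets were scored with scanpy 1.11.5. Python 3.11.15, numpy 2.4.6 and scipy 1.17.1 were used. Scripts were tested on simulated data. The genes named by rank were taken from the 10 highest and 10 lowest log2 changes of each WGP library among genes with a mean of at least 20 CPM, the same direction in Xist and Y cells and at most 50% free RNA, leaving out rule, sex-linked, other-cell, mitochondrial and immunoglobulin genes. For B-1-like cells they were the 10 highest and 10 lowest called genes of 1 direction in every library. List members with the largest change and defining genes were added, and other list members were chosen after their values were seen. The members and lists were chosen with earlier results of these data known. Libraries held between 48219246 and 56849043 UMIs. Genome positions are of GRCm38. Some genes are not reported here.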

Additional observations from a re-analysis of the deposited data

Results flagged for a closer look

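Effects of opposite direction in Xist and Y cells marked 4 results. The difference was not tested in any of them. The 7-day median log2 change of interferon-gamma-induced GTPases and regulators was -0.0985 in Xist members and 1.3537 in Y members. The 3-day median of heat shock genes was 0.1491 in Xist members and -1.3858 in Y members. The 7-day median of B-1 cell genes outside the rule was -1.3538 in Xist members and 0.5106 in Y members. The follicular-like share at 3 days over that in PBS was 2.838 among Xist cells and 0.2373 among Y cells.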

How the results depend on the processing

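No paired analysis was possible because PBS and WGP had 1 library each. In the follicular-like against B-1-like test the library was the block, and with no replicate block 685 genes were higher and 955 lower. Leaving out 1 library gave 478 to 710 higher and 702 to 1196 lower genes. DESeq2 gave 459 and 811, thinned cells 258 and 348, and Y cells only 485 and 743. The 3-day ratio of shares (0.410) was 0.467 thinned, 2.84 in Xist and 0.237 in Y cells. The 7-day ratio (0.330) was 0.379 at a minimum of 2000 UMIs, 0.372 with an upper limit of 10000 UMIs, 0.370 with Ighd and Fcer2a of at least 4, 0.948 in Xist and 0.238 in Y cells. Genes higher at 3 days (27) numbered 0 with 50 CPM added, 52 with no filter, 6 at a minimum of 50 CPM, 50 in Xist cells, 43 in Y cells, 15 thinned and 3 without off-type members. Genes lower at 3 days (15) numbered 8 with 50 CPM added, 45 in Xist cells, 39 thinned and 6 without off-type members. Genes higher at 7 days (39) numbered 19 with 50 CPM added, 117 with no filter, 19 at a minimum of 50 CPM, 68 in Y cells and 9 without off-type members. Genes lower at 7 days (17) numbered 9 with 50 CPM added, 11 at a minimum of 50 CPM, 125 in Xist cells, 51 thinned and 8 without off-type members. The 3-day median of mature and follicular B cell genes was -0.14 in Y cells. The 7-day median of MHC class I presentation was 0.0496 in Xist cells. The 7-day median of interferon-gamma-induced GTPases and regulators was -0.10 in Xist cells, 0.92 in cells with neither transcript and 0.74 without off-type members. The 3-day median of heat shock genes was 0.15 in Xist and -1.39 in Y cells.

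Single genes turned direction in Xist cells. At 3 days these were Dnajb1 (0.40), Fkbp11 (-0.71), Hspa1a (1.42), Hspa1b (1.03) and Hsph1 (0.51). At 7 days they were Gbp2 (-0.18), Gbp4 (-0.13), Gbp7 (-0.41), Ifi47 (-0.19), Irf1 (-0.38) and Socs1 (-0.46). Without off-type members Il1b at 3 days (-0.25) and Ccl4 (-1.25), Ighm (0.0362) and Ly6c2 (0.28) at 7 days turned, and thinned Stmn1 (0.0365) and Top2a (0.0673) turned at 7 days. With at least 3 UMIs the leading Ighv gene took 25%, 50% and 25% of 8, 2 and 4 members. Ighv11-2 shared this lead in PBS and at 3 days. Splits by off-type members and by neither transcript were chosen after seeing the data, and the cause of these shifts was not tested. Genes with a mean under 20 CPM could not be followed at this depth.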

Other observations

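Smaller lists of the follicular-like cells held no called gene at either time. At most 0.771% of all genes were called in 1 direction, so these counts of 0 do not set the lists apart. Of marginal zone B cell genes, which mark the blood-filtering B cells of the spleen, 12 of 17 were measured, and the medians of their log2 changes were 0.14 and 0.27. Of BAFF receptors and survival, which keeps mature B cells alive, 14 of 19 were measured, with medians of 0.13 and 0.22. Of toll-like and pattern receptors 7 of 20 were measured, with medians of 0.16 and 0.22. Of transitional B cell genes 6 of 14 were measured, with medians of 0.05 and -0.27. Of germinal center B cell genes, which mark B cells that mutate their receptors after antigen contact, 2 of 13 were measured, with medians of 0.08 and 0.33. Of glycolysis genes 14 of 19 were measured, with medians of 0.18 and 0.03.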
